A study of Mus musculus with 8 samples.

Results

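Brg1 mutant mouse embryos at the 2-cell stage were compared with wild type embryos, using only mutant replicates 1 and 2. These 2 arrays were set against wild type replicates 1 to 4, so 6 of the 8 arrays of the series entered the comparison. Mutant replicates 3 and 4 were left out because they carried a strong granulosa cell marker signal. Each sample was total RNA of 20 pooled embryos, hybridised as labelled cRNA to 1 Affymetrix mouse array of 45101 probe sets. The labels describe the groups only as wild type and Brg1 mutant whole embryos. They give no strain, age of the mothers, allele or Cre driver, and the series title speaks of maternal BRG1. The samples are called biological replicates without mention of separate animals, so a p-value here reflects only the variation among these pools, which may be technical. In pooled embryos, fewer cells of a type and less RNA per cell cannot be told apart.

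BRG1, encoded by Smarca4, is an ATPase that drives BAF-type chromatin remodelling complexes, which move or evict nucleosomes at promoters and enhancers. The egg supplies the early embryo with a store of maternal mRNAs and proteins, and much of this maternal mRNA is degraded around the time the embryo starts to transcribe its own genome. In the mouse the main wave of this activation falls at the 2-cell stage. Oocyte transcripts that persist and embryonic transcripts that fail to appear are therefore the usual readouts of this step.

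The targeted gene was examined first. The brighter Smarca4 probe set (1426804_at) read 796, 632, 612 and 661 in wild type replicates 1 to 4 and 388 and 201 in mutant replicates 1 and 2. Both mutant values lay below every wild type value. The signal fell from 675 ± 83 (SD, n = 4), a log2 change of -1.27 (SE 0.296, limma adjusted p = 0.0368). This call was lost without any 1 of the wild type arrays (limma adjusted p 0.0989, 0.0598, 0.0701 and 0.0821 without replicates 1 to 4) and without mutant replicate 2 (log2 change -0.79, limma adjusted p = 0.174). A second Smarca4 probe set gave a log2 change of 0.04 (limma adjusted p = 0.966). The labels do not say which part of the gene was altered, so neither probe set fully checks the genotype. Smarca2, which encodes the related ATPase BRM, read 841, 943, 1407 and 1299 in wild type and 1614 and 1979 in the mutants (log2 change 0.70, limma adjusted p = 0.136).

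Both mutant arrays stood apart technically from the wild type arrays. The hybridisation controls, 18 probe sets for bacterial and phage transcripts that are normally spiked in at a fixed amount, read 6.05 and 3.80 times the wild type mean in mutant replicates 1 and 2. The wild type arrays lay between 0.696 and 1.31 times that mean, and mutant replicates 3 and 4 at 1.40 and 0.711 times. Every array had been scaled to a trimmed mean of 150.0, but the highest gene signal was 29400 and 25925 in mutants 1 and 2, against 8162 to 11064 in wild type. Control probe sets for the B2 repeat (33763 and 25331 against 7259 to 11529) and for the middle of 18S rRNA (4940.2 and 9333 against 1598 to 2651) were also above all wild type arrays. The 3′ to 5′ signal ratio, which rises when RNA is degraded or copied short, was 12.9 and 15.1 for actin (16.3 to 21.2 in wild type) and 6.63 and 6.76 for Gapdh (8.58 to 10.1). With 2 against 4 arrays the smallest exact two-sided permutation p is 0.0667. These measures were given no other test, and their part in the gene results was not tested.

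Summed markers of other cells were not higher in mutants 1 and 2 than in wild type. The summed signal of 31 granulosa and cumulus markers was 4438 and 3465 in mutants 1 and 2, within or below the wild type range of 3839 to 4841, whereas mutants 3 and 4 read 37813 and 32378. None of the 18 tested markers of this list passed the limma test (3 at an unadjusted p under 0.05, and 0 adjusted calls with each of the 4 other scalings). Over all 22518 tested probe sets, 5712 had an unadjusted p under 0.05. The steroidogenic enzyme Hsd3b1 read 20.1 and 50.5 in mutants 1 and 2 (wild type 7 to 32.7, mutants 3 and 4 8835 and 6889). Vim, an intermediate filament gene, read 31.1 and 21.5 (wild type 5.3 to 17.1). Sums over 19 oviduct markers (1345 and 1321 against 1051 to 1459.6), 21 sperm transcripts (1739 and 2235 against 2015 to 2312) and 21 blood markers (1177 and 1214 against 964 to 1424) showed no rise above the highest wild type array. Of the 11, 9 and 9 tested members, only the oviduct marker Ccdc153 passed, and it was lower (log2 change -2.34, limma adjusted p = 0.0449), with 3, 0 and 0 members at an unadjusted p under 0.05. Ccdc153 lost its call without wild type 1, 2, 3 and 4 or mutant 2 (limma adjusted p 0.0758 to 0.202). All 10 markers of oocytes and 2-cell embryos, such as Zp3 and Gdf9, were above background on all 8 arrays.

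**Figure D1:**
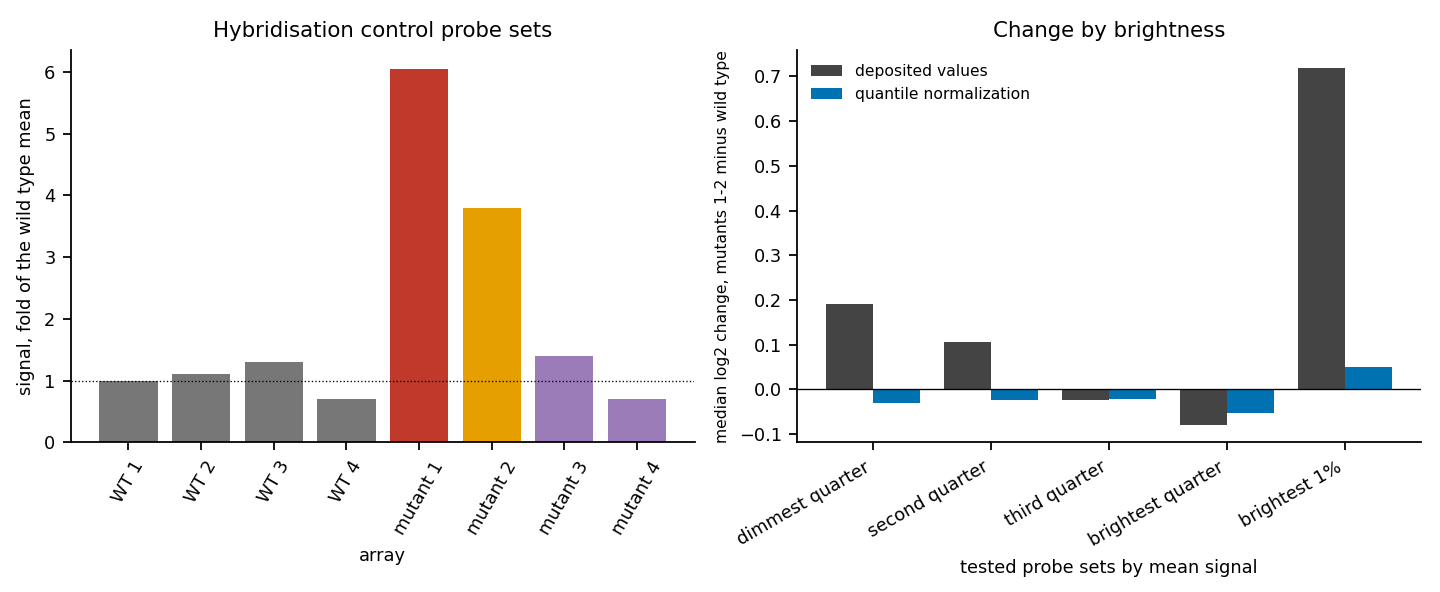
Left, mean signal of the 18 hybridisation control probe sets on each array as a fold of the wild type mean (dotted line at 1). Mutants 1 and 2 reach 6.05 and 3.80. Right, median log2 change (mutants 1-2 minus wild type) of tested probe sets by mean signal, for the deposited values and after quantile normalization. The brightest 1% (225 probe sets) sit at 0.72 before and 0.05 after normalization.

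Across the 50% of probe sets with the higher signal, 788 of 22518 (3.50%) were higher and 696 (3.09%) were lower in the mutants at a limma adjusted p under 0.05. They stood for 448 higher genes (3.75% of 11932) and 430 lower genes (3.60%). Estimates reached a 2-fold change in 669 probe sets that rose and 649 that fell. All called probe sets had both mutants beyond all 4 wild type arrays, while in 20.1% of all tested genes both lay above and in 16.5% both lay below. The split between rises and falls followed the scaling: after quantile normalization 646 probe sets rose and 755 fell, centring on the 75th percentile 529 and 712, and centring on the median 279 and 1212, and over every tested probe set the median change, 0.05 as deposited, became -0.03, -0.01 and -0.20. Genes called higher numbered 115, 349, 255 and 158 without wild type replicates 1 to 4. Genes called lower numbered 81, 324, 182 and 109 in the same fits. List counts below that leave out 1 wild type array are to be read against these. The count of probe sets also depended on single arrays. It fell to 195 higher and 143 lower without wild type replicate 1, 433 and 291 without replicate 3, 264 and 185 without replicate 4, and 117 and 302 without mutant replicate 2, and it became 830 and 1394 without mutant replicate 1.

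Change also varied with brightness. The brightest 1% of tested probe sets had a median log2 change of 0.72, with 107 called higher and 1 lower. After quantile normalization, which gives every array the same distribution, the same probe sets had a median of 0.05, with 8 higher and 11 lower. The other scalings left more of this shift: a median of 0.58 with 87 higher and 1 lower under cyclic loess, 0.65 with 65 and 1 with centring on the 75th percentile, and 0.47 with 40 and 1 with centring on the median. In the dimmest 25% the median log2 change was 0.19 before and -0.03 after quantile normalization. Rises of the brightest genes are therefore given below with both values.

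The 12 largest falls were led by Glis1, which encodes a zinc finger transcription factor abundant in eggs and early embryos. Its probe set (1425423_at) read 378, 155, 381 and 455 in wild type and 19.7 and 19.5 in mutants 1 and 2. No mutant value came near the lowest wild type array, and both lay under the background bound, set on each array at the 95th percentile of its 27 Bacillus control probe sets. Glis1 was therefore at least 9.89-fold lower (fitted log2 change -4.02, SE 0.414, limma adjusted p = 0.00396), and the call held in all 6 fits that left out 1 array. Glis1 in mutants 3 and 4 read 15 and 10.4.

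The milk-fat globule membrane gene Btn1a1 read 290.1, 353, 465 and 466 in wild type and 18.2 and 39.8 in the mutants (log2 change -3.84, SE 0.36, limma adjusted p = 0.00326). Cdk5r2, which encodes an activator of the kinase CDK5, read 113, 88.1, 202 and 77.4 against 8.2 and 10.2, at least 3.48-fold lower (limma adjusted p = 0.00747). Dusp5, a nuclear phosphatase of ERK kinases, read 354, 249, 196 and 272 against 22.9 and 54.8 (log2 change -2.89, SE 0.383, limma adjusted p = 0.00919). In these 3 genes the groups were far apart, and each call held in all 6 leave-one-out fits. Mutants 3 and 4 read 28.2 and 59.5 for Btn1a1, 21.3 and 11.2 for Cdk5r2 and 8.1 and 13.3 for Dusp5.

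Ptpn23, an ESCRT-associated phosphatase-like gene of endosomal sorting, read 93, 112, 89.6 and 99.7 in wild type and 11.6 and 7.9 in mutants 1 and 2, at least 3.06-fold lower (limma adjusted p = 0.00417). Sh3bp5l was at least 3.54-fold lower (11.9 and 16 against 71.4 to 212, limma adjusted p = 0.00969). Hs1bp3 was at least 2.77-fold lower (14.2 and 10.5 against 62.3 to 109.6, limma adjusted p = 0.00919). All 3 held their call in every leave-one-out fit. Their values in mutants 3 and 4 were in or near the wild type range: 116 and 109, 123 and 214 and 81.4 and 82.3. Scnn1a, the alpha subunit of the epithelial sodium channel, was at least 4.27-fold lower (23.1 and 7.9 against 76.8 to 299, limma adjusted p = 0.016) and lost its call without mutant 2 (limma adjusted p 0.0889).

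In the other four of the 12 falls, mutant replicate 2 was much lower than mutant replicate 1. The SUMO protease gene Senp7 read 205, 286, 115 and 119 in wild type and 53.9 and 3.8 in the mutants (log2 change -3.55, SE 0.857, limma adjusted p = 0.0403). Prdx4, a peroxiredoxin of the endoplasmic reticulum, read 1323, 1301, 1102 and 1234 against 437 and 69 (log2 change -2.83, SE 0.568, limma adjusted p = 0.0231). Another Prdx4 probe set fell by 1.90 (limma adjusted p = 0.0127). Further ones did not pass (log2 changes -0.94 and 0.33, limma adjusted p 0.183 and 0.727). Rrp9, a protein of the U3 snoRNP that processes ribosomal RNA, read 312 to 528 against 164 and 17.7 (log2 change -2.92, limma adjusted p = 0.0384). For the zinc finger gene Zfp672 the values were 106 to 278 against 56.4 and 9.4 (log2 change -2.88, limma adjusted p = 0.0323). These calls rested on single arrays: Senp7 lost its call without wild type 1, 2, 3 and 4 or mutant 2 (limma adjusted p 0.062 to 0.147), Rrp9 without wild type 1, 2, 3 and 4 or mutant 2 (limma adjusted p 0.0611 to 0.0994), Zfp672 without wild type 1, 2 and 3 or mutant 2 (limma adjusted p 0.0547 to 0.154) and Prdx4 without wild type 1, 2 and 4 (limma adjusted p 0.0504 to 0.0639).

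Nfya was picked out after its values were seen, as it encodes the DNA-binding subunit of NF-Y, a factor of CCAAT-containing promoters. Its signal was 1568, 1342, 2742 and 2431 in wild type and 416 and 331 in mutants 1 and 2, with no overlap (log2 change -2.38, SE 0.316, limma adjusted p = 0.00919), and the call held in all 6 leave-one-out fits. A second Nfya probe set fell by 3.11 (limma adjusted p = 0.0224) and the other one did not pass (log2 change -0.61, limma adjusted p = 0.233).

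The promoters of 2 genes that fell are shown so that they can be set beside those of the genes that rose. Each is the RefSeq window from 250 bases before to 50 bases after an annotated start (GRCm38.p6), 5′ to 3′ on the gene's strand, with CG dinucleotides in capitals: Glis1 at chr4:107434469-107434768 on the plus strand and Cdk5r2 at chr1:74854779-74855078 on the plus strand. They hold 47 and 33 of these dinucleotides. Both hold the letters CCAAT and neither holds TATAAA, with either motif searched on both strands.
Glis1: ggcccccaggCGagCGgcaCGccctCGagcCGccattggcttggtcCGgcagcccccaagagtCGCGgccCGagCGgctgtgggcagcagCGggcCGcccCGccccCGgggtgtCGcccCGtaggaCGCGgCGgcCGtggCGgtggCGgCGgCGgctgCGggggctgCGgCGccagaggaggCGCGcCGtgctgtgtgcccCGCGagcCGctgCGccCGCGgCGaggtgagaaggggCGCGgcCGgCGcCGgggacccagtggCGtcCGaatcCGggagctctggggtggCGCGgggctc
Cdk5r2: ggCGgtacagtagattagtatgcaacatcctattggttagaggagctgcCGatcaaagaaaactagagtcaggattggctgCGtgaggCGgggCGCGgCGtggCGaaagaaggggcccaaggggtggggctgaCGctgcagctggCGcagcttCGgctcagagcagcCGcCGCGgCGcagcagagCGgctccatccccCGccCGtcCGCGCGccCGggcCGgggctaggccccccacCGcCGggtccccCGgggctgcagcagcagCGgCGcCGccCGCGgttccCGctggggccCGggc

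Among the 12 largest rises was Arid5b. This AT-rich interaction domain gene, whose protein binds DNA and partners a histone demethylase, read 42.3, 30.4, 26.5 and 37.9 in wild type and 458 and 523 in mutants 1 and 2. The mutants exceeded every wild type array by a wide margin (log2 change 3.86, SE 0.301, limma adjusted p = 0.00277) in all 6 leave-one-out fits. Another Arid5b probe set rose by 2.82 (limma adjusted p = 0.0233), and 2 more did not pass (log2 changes 1.24 and 0.44, limma adjusted p 0.0590 and 0.410). Mutants 3 and 4 read 274 and 339.7.

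Rnf10, a RING-type ubiquitin ligase, read 364, 559, 491 and 369.8 in wild type and 2909 and 3311 in the mutants (log2 change 2.82, SE 0.254, limma adjusted p = 0.00292). A second Rnf10 probe set did not pass (log2 change 0.74, limma adjusted p = 0.285). Dbp, a clock-output transcription factor of the PAR bZIP family, read 82.8, 86.8, 67 and 47.3 against 436 and 687 (log2 change 2.99, SE 0.331, limma adjusted p = 0.00502). Another Dbp probe set did not pass (log2 change 1.695, limma adjusted p = 0.0736). Rnf10 and Dbp kept their calls in all 6 leave-one-out fits, and their groups did not overlap. In mutants 3 and 4 Rnf10 read 833 and 1087 and Dbp 417 and 389.

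Several of the largest rises were in genes at or near background in wild type. Transcript 4930526I15Rik read 46.2, 26.2, 26.1 and 4.7 in wild type, with 3 of 4 arrays under the bound, and 181 and 622 in the mutants (log2 change 4.09, SE 0.834, limma adjusted p = 0.0246). Its probe set carries a suffix for shared sequence, so near-identical transcripts may contribute. Gadd45g, a growth arrest and DNA damage-inducible gene, read 6.2, 28.7, 35.2 and 17.5 against 179 and 285 (log2 change 3.63, SE 0.652, limma adjusted p = 0.0175). Gm1070 read 8.4 to 34.2 against 184 and 165 (log2 change 3.31, limma adjusted p = 0.014). Each of these calls was lost without mutant replicate 2, at a limma adjusted p of 0.162, 0.106 and 0.0682. Their log2 changes remain uncertain because the wild type signal is close to background.

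Fam171b rose from 43.1 to 142 to 518 and 912 (log2 change 3.27, limma adjusted p = 0.00927) and lost its call without mutant 2 (limma adjusted p 0.0586). The stress-response transcription factor gene Ddit3 (CHOP) read 13.4, 39.5, 113 and 116 in wild type and 562 and 428 in mutants 1 and 2 (log2 change 3.26, SE 0.758, limma adjusted p = 0.0365). In mutants 3 and 4 Ddit3 read 84.3 and 66.3, inside the wild type range, and its call was lost without wild type 2 or mutant 1 and 2 (limma adjusted p 0.0742 to 0.133). Nudt19, a peroxisomal hydrolase of coenzyme A, rose from 17.6 to 121 to 339.8 and 742 (log2 change 2.86, limma adjusted p = 0.0448). It lost its call without wild type 2, 3 and 4 or mutant 1 and 2. It passed under none of the 4 other scalings. The limma adjusted p was 0.0521 after quantile normalization, 0.0532 under cyclic loess, and 0.0599 and 0.0564 with centring on the median and the 75th percentile. Gm38396 (184 and 213 against 17 to 62.3, log2 change 2.67, limma adjusted p = 0.0175) lost its call without wild type 1 or mutant 2 (limma adjusted p 0.0501 to 0.0949). Cltrn, which encodes collectrin, a partner of amino acid transporters, read 154 and 161 against 16.4 to 34.4 (log2 change 2.64, limma adjusted p = 0.00969) and lost its call without mutant 2 (limma adjusted p 0.0557).

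Fxyd6, a small regulator of the sodium pump, was outside the tested 50% of probe sets because its wild type signal was so low. Its probe set (1417343_at) read 3.8, 23.7, 4.9 and 3.7 in wild type, under the background bound on all 4 arrays, and 434 and 587 in mutants 1 and 2. It was at least 20.8-fold higher in the mutants, and it passed in the fit with no filter (limma adjusted p = 0.0265). Mutants 3 and 4 read 155 and 124.

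**Figure D2:**
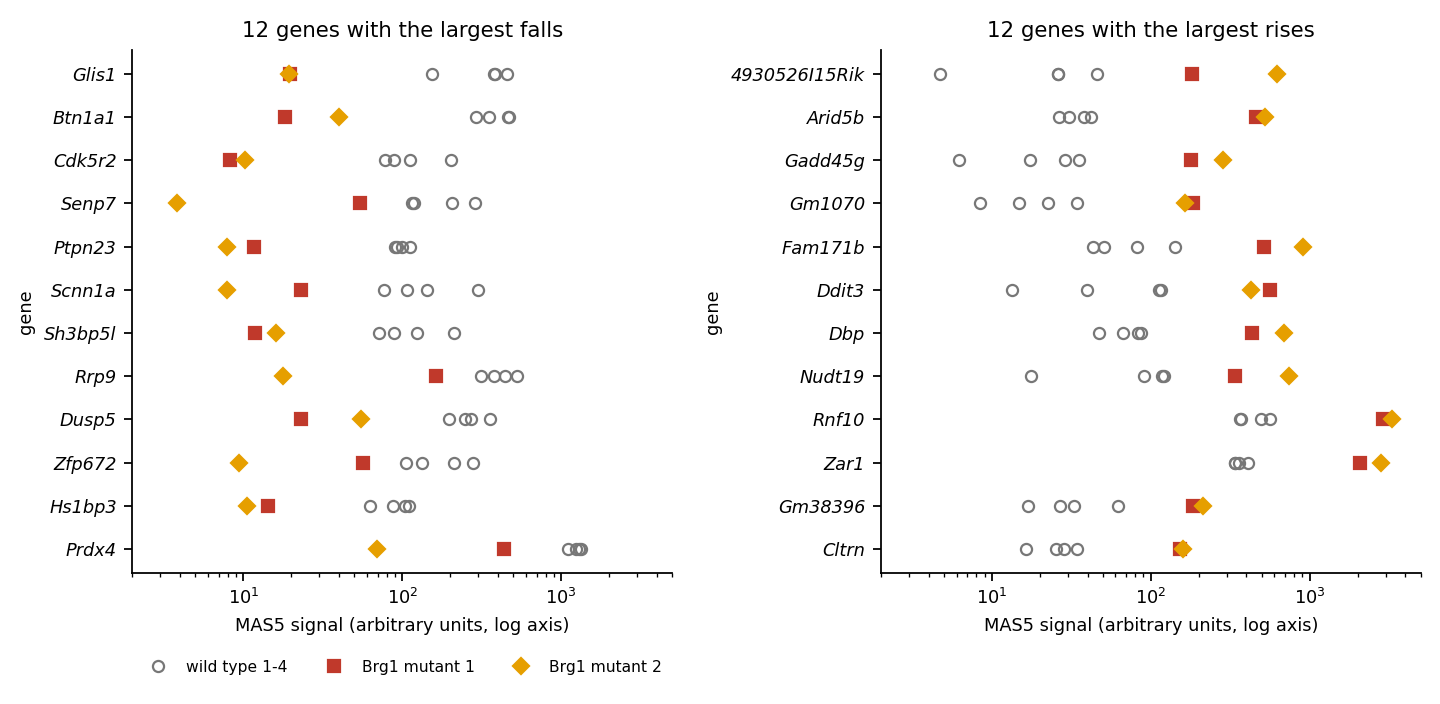
MAS5 signal on a log axis for the 12 genes with the largest falls (left) and the 12 with the largest rises (right). Open circles are the 4 wild type arrays, squares mutant 1 and diamonds mutant 2. Only genes with both mutants beyond all wild type arrays could be picked, so the gap between groups follows from the selection. In Senp7, Rrp9, Zfp672 and Prdx4 mutant 2 is far below mutant 1.

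The promoters of 2 genes that rose follow in the same format, Arid5b at chr10:68278677-68278976 on the minus strand and 4930526I15Rik at chr9:124423537-124423836 on the plus strand. The Arid5b window holds 7 CG dinucleotides and the letters TATAAA, and the 4930526I15Rik window holds 21 CG dinucleotides and the letters CCAAT.
Arid5b: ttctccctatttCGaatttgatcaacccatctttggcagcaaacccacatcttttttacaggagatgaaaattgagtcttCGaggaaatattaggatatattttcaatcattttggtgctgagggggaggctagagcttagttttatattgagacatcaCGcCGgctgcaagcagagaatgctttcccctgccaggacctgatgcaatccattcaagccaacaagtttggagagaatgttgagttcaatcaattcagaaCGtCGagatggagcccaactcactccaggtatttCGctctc
4930526I15Rik: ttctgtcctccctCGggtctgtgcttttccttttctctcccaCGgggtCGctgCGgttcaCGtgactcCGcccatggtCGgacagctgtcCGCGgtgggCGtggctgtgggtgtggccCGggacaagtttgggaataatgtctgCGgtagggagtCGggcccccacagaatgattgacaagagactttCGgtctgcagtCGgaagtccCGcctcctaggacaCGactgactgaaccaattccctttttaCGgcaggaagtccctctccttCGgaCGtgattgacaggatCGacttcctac

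Of the 31 gene lists, oocyte and maternal-effect transcripts had the highest share of rises. Of 47 tested genes, 16 rose, none fell and 31 did not pass, and the median log2 change was 0.64 against 0.03 over all 11932 tested genes. Both mutants lay above all wild type arrays for 27 of the 47, where 20.1% of all tested genes did so. This list overlaps what was already known of these arrays, so its direction is not independent evidence. Leaving out wild type arrays 1 to 4 in turn left 6, 10, 12 and 8 rises, against 115, 349, 255 and 158 of all tested genes. The median was 0.72 without mutant replicate 1 and 0.43 without mutant replicate 2.

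Zar1, a maternal-effect gene needed for the oocyte-to-embryo transition, showed the largest rise of the list. Its probe set (1434494_at) read 337, 411, 360.0 and 338 in wild type and 2066 and 2819.5 in mutants 1 and 2. The wild type values were close together, and both mutants were far above the highest of them (log2 change 2.75, SE 0.235, limma adjusted p = 0.00277, 6.7-fold). Quantile normalization left a change of 2.71 (limma adjusted p = 0.00304), and all 6 leave-one-out fits kept the call. Zar1 in mutants 3 and 4 read 2439 and 2483.

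The oocyte linker histone gene H1f8 read 59.5, 49.1, 109 and 105 in wild type and 292 and 586 in mutants 1 and 2 (log2 change 2.44, SE 0.417, limma adjusted p = 0.015). Gdf9, a growth factor that oocytes secrete, read 1235, 1119, 1925 and 1809 against 3516 and 5514 (log2 change 1.57, SE 0.291, limma adjusted p = 0.0191), and its paralog Bmp15 read 1886, 2311, 2832 and 2708 against 4283 and 5518 (log2 change 1.02, limma adjusted p = 0.0313). In all 3 genes every mutant value lay above every wild type value. H1f8 lost its call without mutant 2 (limma adjusted p 0.0952), Gdf9 without wild type 1 or mutant 2 (limma adjusted p 0.0587 to 0.106) and Bmp15 without wild type 1, 2 and 4 or mutant 2 (limma adjusted p 0.059 to 0.151) and after quantile normalization (0.0534). In mutants 3 and 4, H1f8 read 442 and 494, Gdf9 2877 and 2854 and Bmp15 1483 and 1470.0.

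Smaller rises were measured for Bpgm (log2 change 1.95), the imprinting regulator Zfp57 (1.40), the tissue plasminogen activator gene Plat (1.23), the subcortical complex member Padi6 (1.01) and the zona pellucida gene Zp1 (0.997), with limma adjusted p between 0.0173 and 0.0477. Bpgm lost its call without wild type 1 or mutant 2, Plat without wild type 1, 3 and 4 or mutant 2, and the other three without any 1 wild type array or mutant 2 (limma adjusted p from 0.0502 to 0.215). Some members of the same families did not pass. The zona gene Zp3 read 689, 684, 559.7 and 618 against 795 and 893 (log2 change 0.41, limma adjusted p = 0.284), and the subcortical complex gene Nlrp5 read 998, 539.5, 1256 and 1261 against 1591 and 2665 (log2 change 1.10, limma adjusted p = 0.103). Gtsf1 had the lowest estimate of the list (log2 change -1.33, limma adjusted p = 0.118).

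The brightest oocyte transcripts depended on the scaling. Of the 47 tested members, 9 were among the brightest 1% of probe sets, and 7 of these rose with the deposited values (Spin1, Oosp1, Omt2b, Omt2a, Zbed3, Bcl2l10 and Dppa3). After quantile normalization 1 of them rose and their median change went from 0.84 to 0.05, whereas under cyclic loess 5 rose and the median was 0.64. The other 38 members had 9 rises and a median of 0.41 as deposited, 8 rises, 1 fall and a median of 0.45 after quantile normalization, and 10 rises and a median of 0.44 under cyclic loess. Centring on the median left 3 rises among the bright (median 0.59) and 3 among the other members, with 2 falls.

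Spin1, which encodes a meiotic spindle-associated histone reader, read 6729, 6803, 8409 and 5941 in wild type and 22155 and 20621 in the mutants. The change was 1.63 (SE 0.175, limma adjusted p = 0.00442) and 0.48 after quantile normalization (limma adjusted p = 0.0412). Oosp1, an oocyte-secreted protein gene, read 6698, 5703, 8216 and 5880.4 against 21369 and 19965, a change of 1.66 (limma adjusted p = 0.00514) that became 0.51 (limma adjusted p = 0.052). The near-identical genes Omt2a and Omt2b, whose probe sets may share signal, changed by 1.07 and 1.22 and by 0.41 and 0.47 after normalization, no longer passing (limma adjusted p 0.0845 and 0.061). Oosp1 and Omt2b passed under the other 3 scalings, and Omt2a did except with centring on the median (limma adjusted p 0.0561). For Dppa3, Zbed3 and Bcl2l10, changes of 0.72, 0.84 and 0.79 turned to -0.08, -0.27 and -0.27 (limma adjusted p 0.729, 0.141 and 0.32). Under the other 3 scalings their changes were between 0.47 and 0.77, and 1 call remained, that of Bcl2l10 under cyclic loess (limma adjusted p 0.0457). Another Zbed3 probe set had an estimate in the other direction (log2 change -0.69, limma adjusted p = 0.126), with both mutants (628 and 1064) below all wild type arrays (1260 to 1448). A further Zbed3 probe set did not pass (log2 change 0.67, limma adjusted p = 0.155). Mutants 3 and 4 read 7296 and 5192 for Spin1 and 6936 and 5361 for Oosp1.

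**Figure D3:**
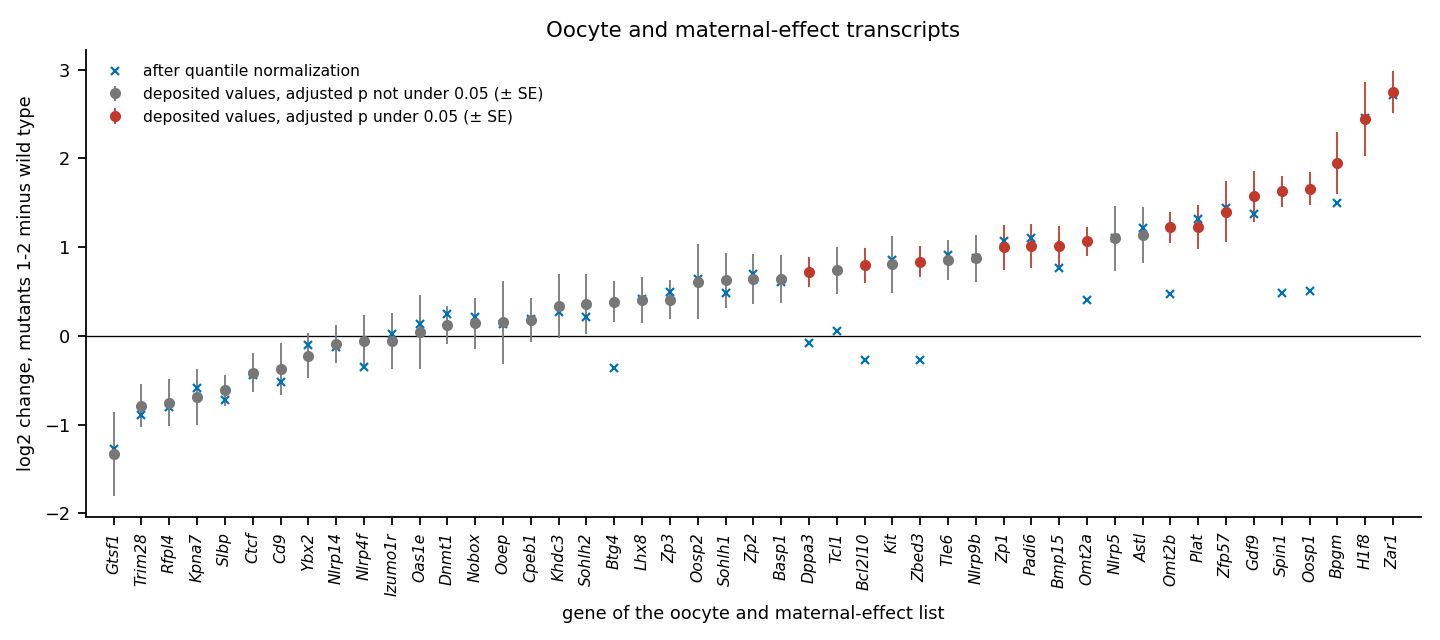
Log2 change (mutants 1-2 minus wild type) of the 47 tested oocyte and maternal-effect genes. Points are estimates from the deposited values with their SE, red where the limma adjusted p is under 0.05 (16 genes), and crosses are the estimates after quantile normalization. Zar1 and H1f8 keep their position, whereas the crosses of Spin1, Oosp1, Zbed3, Bcl2l10 and Dppa3 lie well below their points.

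The promoters of Zar1 and Oosp1 are given for comparison with the windows above, as a gene that kept its rise and a gene whose rise shrank under normalization: Zar1 at chr5:72581035-72581334 on the minus strand and Oosp1 at chr19:11691002-11691301 on the minus strand. They hold 17 and 5 CG dinucleotides, and neither window holds TATAAA or CCAAT.
Zar1: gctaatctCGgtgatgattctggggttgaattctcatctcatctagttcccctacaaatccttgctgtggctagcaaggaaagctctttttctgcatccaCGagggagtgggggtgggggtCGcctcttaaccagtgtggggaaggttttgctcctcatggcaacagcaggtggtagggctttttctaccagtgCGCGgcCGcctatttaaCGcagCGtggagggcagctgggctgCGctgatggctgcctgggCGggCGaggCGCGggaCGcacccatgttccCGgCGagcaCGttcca
Oosp1: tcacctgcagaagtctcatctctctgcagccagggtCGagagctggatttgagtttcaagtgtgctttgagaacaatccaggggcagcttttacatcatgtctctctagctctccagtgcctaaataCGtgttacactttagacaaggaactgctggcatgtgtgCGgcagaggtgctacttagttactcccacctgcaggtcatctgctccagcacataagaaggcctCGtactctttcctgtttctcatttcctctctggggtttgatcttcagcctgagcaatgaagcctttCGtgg

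Promoter windows were available for 360 of the 448 higher genes and 357 of the 430 lower genes. Median GC content was 63.0% in the higher, 61.3% in the lower and 60.3% in the 9659 tested genes with a window, and the observed over expected CG ratio was 0.80, 0.81 and 0.75. TATAAA on either strand occurred in 9.44%, 7.28% and 7.68% of these windows, and in 14.2% of all 27025 windows of the table. CCAAT on either strand occurred in 38.3%, 40.6% and 38.7%, and in 37.9% of the table. Among the 16 oocyte-list genes that rose, 11 had a window, with a median GC content of 51.3% and a CG ratio of 0.26. The 28 windows of oocyte-list genes that did not pass had medians of 58.0% and 0.45. These figures are descriptions of letters in a fixed window and say nothing of binding.

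Of 25 tested subunits of the BAF-type complexes themselves, 1 rose (4.0%) and 4 fell (16.0%), against 3.75% and 3.60% of all tested genes. The targeted gene Smarca4 was among the 4, and the median log2 change was -0.19. Smarcb1, a core subunit, read 410.1, 713, 782 and 672 in wild type and 149 and 160.1 in the mutants (log2 change -2.02, SE 0.298, limma adjusted p = 0.00969), and the call held in all 6 leave-one-out fits. That probe set is of a kind that can cross-hybridise, and 2 other Smarcb1 probe sets did not pass (log2 changes 0.06 and 0.73, limma adjusted p 0.936 and 0.279). Ss18l1, a paralog of the SS18 subunit, read 396, 403, 598 and 506 against 176 and 224 (log2 change -1.24, limma adjusted p = 0.0291), and Smarcd2 read 6119, 5631, 6173 and 5433 against 3638 and 3446 (log2 change -0.72, limma adjusted p = 0.0352). The 1 gene that rose was Arid2, a subunit of the PBAF form (log2 change 0.83, limma adjusted p = 0.0392). Ss18l1 lost its call without wild type 1, 3 and 4 or mutant 1 and 2 (limma adjusted p 0.0645 to 0.0787), and Smarcd2 without wild type 1, 2, 3 and 4 or mutant 2 (limma adjusted p 0.0539 to 0.114). Without wild type replicates 1 to 4 the list had 1, 2, 1 and 1 falls and no rise. Without mutant replicate 2 its median was -0.2.

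Other chromatin genes had calls in both directions, to be read against 3.75% higher and 3.60% lower over all tested genes. Among 31 other remodellers only Mta2 of the NuRD complex passed, and it fell (603, 666, 577 and 547 against 305 and 131, log2 change -1.58, limma adjusted p = 0.0262). Of 24 H3K4 methylation enzymes, 2 rose and 1 fell: the demethylase Kdm5b fell (log2 change -0.93, limma adjusted p = 0.0405), while Kmt2e (log2 change 1.44, limma adjusted p = 0.0394) and the coactivator Ncoa6 (log2 change 0.78, limma adjusted p = 0.0464) rose. Of 29 enzymes of DNA, H3K9 or H3K27 methylation, the H3K27 demethylase Kdm6b rose from 402 to 677 to 1421 and 2169 (log2 change 1.62, limma adjusted p = 0.0172) and Setdb2 fell from 452 to 629 to 299 and 227 (log2 change -1.12, limma adjusted p = 0.0339). Of 25 histone acetylation enzymes, Kat7 (-1.03) and Ncoa3 (-1.04) fell (limma adjusted p 0.0299 and 0.0314). Another Ncoa3 probe set had an estimate in the other direction (log2 change 0.63, limma adjusted p = 0.202), with both mutants above all wild type arrays, and another Kat7 probe set did not pass (log2 change -0.43, limma adjusted p = 0.547). Each of these 8 calls was lost without mutant replicate 2, and all but that of Kdm6b also without wild type 1, 3 or 4 (limma adjusted p up to 0.181). Mta2, Kdm5b, Ncoa6 and Kat7 lost theirs without wild type 2 as well, and Kmt2e, Ncoa6 and Ncoa3 without mutant 1. Other Kdm5b probe sets did not pass (log2 changes -0.27 and 0.00, limma adjusted p 0.617 and 0.998). The called Kdm6b probe set is of a kind that can cross-hybridise, and another did not pass (log2 change 1.07, limma adjusted p = 0.0708). A second Kmt2e probe set rose (log2 change 1.11, limma adjusted p = 0.0352). With centring on the 75th percentile Ncoa6 and Kdm5b did not pass (limma adjusted p 0.0955 and 0.0525). Ncoa6 did not pass with centring on the median either (limma adjusted p 0.2225). Among 24 histone and chaperone genes, H1f8 and Anp32b rose, though Anp32b did not pass with centring on the median (limma adjusted p = 0.0533). The histone chaperone gene Anp32b read 3329, 3308, 3623 and 3239 in wild type and 7213 and 7079 in the mutants (log2 change 1.08, SE 0.166, limma adjusted p = 0.0107), and all 6 leave-one-out fits kept its call.

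Early 2-cell transcripts mark the first embryonic transcription. Of 23 tested genes of this list, 3 rose (13.04%, against 3.75% of all tested genes), 1 fell and 19 did not pass in mutants 1 and 2, with a median log2 change of 0.05. Obox3, a homeobox gene, read 1701, 2128, 1833 and 2024 in wild type and 1025 and 783 in the mutants (log2 change -1.09, SE 0.216, limma adjusted p = 0.022). Duxf3, of the multi-copy Dux family whose copies the array may not tell apart, read 35.7, 43.7, 41.1 and 41.6 against 129 and 167 (log2 change 1.86, SE 0.302, limma adjusted p = 0.0129). Zfp352 rose (log2 change 1.29, limma adjusted p = 0.0333), and the metallothionein gene Mt2 read 5286, 4933, 3309 and 3029 against 10439 and 8418 (log2 change 1.22, limma adjusted p = 0.0267) but did not pass after quantile normalization (change 0.63, limma adjusted p = 0.21), cyclic loess (limma adjusted p = 0.0572) or centring on the median (limma adjusted p = 0.0508). Obox3 lost its call without wild type 1, 3 and 4 or mutant 2 (limma adjusted p 0.0502 to 0.0987), Duxf3 without mutant 2 (limma adjusted p 0.0735) and Mt2 without wild type 3 and 4 or mutant 1 and 2 (limma adjusted p 0.0542 to 0.0772).

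Neither Hspa1b nor Eif1a, also members of the list, passed. Hspa1b, a heat shock gene switched on early in the embryo, read 1362, 1745, 2159 and 2226 in wild type and 2699 and 1984 in the mutants (log2 change 0.33, limma adjusted p = 0.451). Eif1a, a translation factor gene of the same class, read 379, 506, 341 and 321 against 409.6 and 359 (log2 change 0.01, limma adjusted p = 0.986). In both genes the groups overlapped. Without mutant replicate 1 the median log2 change of the list was -0.09, and without mutant replicate 2 it was 0.29. The median of the list was 0.16, -0.20 and -0.01 after quantile normalization and centring on the median and the 75th percentile. Over all tested genes the median was 0.03 as deposited and -0.04, -0.22 and -0.03 under these scalings.

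RNA polymerase II machinery leaned lower. Of 78 tested genes, 2 rose (2.56%) and 7 fell (8.97%), against 3.75% and 3.60% of all tested genes. The median log2 change was -0.36. Taf9b, a TFIID-associated factor, read 1368, 1033, 1196 and 1249 in wild type and 203 and 201 in mutants 1 and 2, with no overlap (log2 change -2.58, SE 0.224, limma adjusted p = 0.00277, 5.97-fold lower), and kept its call in every leave-one-out fit. Taf9b in mutants 3 and 4 read 62.4 and 75.7. The Mediator subunits Med17 (214, 239, 177 and 294 against 89.7 and 42.5, log2 change -1.88, limma adjusted p = 0.0191) and Med23 (283, 205, 265 and 279 against 108 and 68.9, log2 change -1.57, limma adjusted p = 0.0182) also fell. Med17 lost its call without wild type 1 or mutant 2 (limma adjusted p 0.0535 to 0.0982), and Med23 without wild type 1 and 4 or mutant 2 (limma adjusted p 0.0507 to 0.0914). The count lower was 1, 3, 3 and 2 without wild type replicates 1 to 4, against 81, 324, 182 and 109 of all tested genes. The median was -0.44 without mutant replicate 1 and -0.2 without mutant replicate 2.

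Pre-mRNA splicing genes showed the same lean, with 7 of 64 lower (10.9%), 1 higher (1.56%) and a median of -0.39. The shares over all tested genes were 3.60% and 3.75%. The helicase gene Dhx8 read 491, 461, 449 and 408 in wild type and 196 and 159 in the mutants (log2 change -1.35, limma adjusted p = 0.0163). Srsf10, a splicing regulator, read 982, 677, 1153 and 1091 against 444 and 225 (log2 change -1.60, limma adjusted p = 0.0258), though 3 other Srsf10 probe sets did not pass (log2 changes -0.99, -0.09 and 0.32). Aqr, a helicase of the intron-binding complex, rose from 162 to 195 to 523 and 425 (log2 change 1.44, SE 0.242, limma adjusted p = 0.0143) and kept its call in all 6 leave-one-out fits. Dhx8 lost its call without wild type 1 or mutant 2 (limma adjusted p 0.056 to 0.07), and Srsf10 without wild type 1, 3 and 4 or mutant 2 (limma adjusted p 0.0597 to 0.132). The count lower was 1, 4, 2 and 1 without wild type replicates 1 to 4, against 81, 324, 182 and 109 of all tested genes. The median was -0.63 without mutant replicate 1 and -0.17 without mutant replicate 2.

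Ribosome biogenesis factors and ribosomal proteins were the lists whose medians lay farthest apart between the mutant arrays. Of 83 tested biogenesis genes 3 fell and none rose. That share lower, 3.61%, was close to the 3.60% of all tested genes. The median log2 change was -0.46, with 66 negative estimates. With mutant replicate 2 alone the median was -0.88, and with mutant replicate 1 alone it was -0.01. Besides Rrp9, the nucleolar methyltransferase gene Fbl read 1446, 1162, 1009 and 1036 against 715 and 394 (log2 change -1.12, limma adjusted p = 0.0494) and the pseudouridine synthase gene Dkc1 1859, 1602, 2428 and 2039 against 1162 and 925 (log2 change -0.92, limma adjusted p = 0.0467). Fbl did not pass after quantile normalization (limma adjusted p = 0.0762) or under cyclic loess (limma adjusted p = 0.0576). With centring on the 75th percentile Dkc1 did not pass (limma adjusted p = 0.0645). Other Dkc1 probe sets changed by -1.27 and -0.36 (limma adjusted p 0.0378 and 0.462). Another Fbl probe set did not pass (log2 change -0.98, limma adjusted p = 0.105). The list had 0, 1, 0 and 0 genes lower without wild type replicates 1 to 4, against 81, 324, 182 and 109 of all tested genes. Cytosolic ribosomal proteins had no limma call among 36 tested. An unadjusted p under 0.05 was found for 3 of them, against 5712 of all 22518 tested probe sets. The median of these proteins, -0.07, combined 0.28 in mutant 1 with -0.60 in mutant 2. The smallest adjusted p among them was that of Rps2 (log2 change 0.65, limma adjusted p = 0.0603), a bright gene whose change was 0.08 after quantile normalization (limma adjusted p = 0.774).

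Translation factors included 7 falls (15.6%) and 3 rises (6.67%) among 45 tested, against 3.60% and 3.75% of all tested genes. Their median was -0.32. Eif3f, a subunit of initiation factor eIF3, read 2062, 1766, 1493 and 1601 in wild type and 619 and 331 in the mutants (log2 change -1.92, SE 0.283, limma adjusted p = 0.00969). Eif1ax, which helps the ribosome find the start codon, read 1439.7, 1274, 1373 and 1326 against 589.5 and 527 (log2 change -1.28, SE 0.205, limma adjusted p = 0.0124). Eif4g2, a scaffold for cap-independent initiation, read 6811, 7957, 8654 and 6161 against 21549 and 16847 (log2 change 1.38, SE 0.191, limma adjusted p = 0.0092). The first and the second fell and the third rose with separated groups, and all 3 calls held in every leave-one-out fit. Eif4g2 is among the brightest genes, and its change was 0.21 after quantile normalization (limma adjusted p = 0.35), though it passed under the other 3 scalings (changes 1.13 to 1.31). Other Eif4g2 probe sets did not pass (log2 changes 0.75, 0.78 and 0.66, limma adjusted p 0.051, 0.116 and 0.323). Mutants 3 and 4 read 4924 and 4274 for Eif3f, above wild type. Without wild type replicate 1 the list had 3 falls and 1 rise, against 81 and 115 of all tested genes. Without mutant replicate 2 its median was -0.08. Among 38 proteasome subunits only Psma3 passed (2.63% lower, against 3.60% of all tested genes), and it fell (log2 change -1.11, limma adjusted p = 0.0368). Its call was lost without wild type 1, 2, 3 and 4 or mutant 2.

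**Figure D4:**
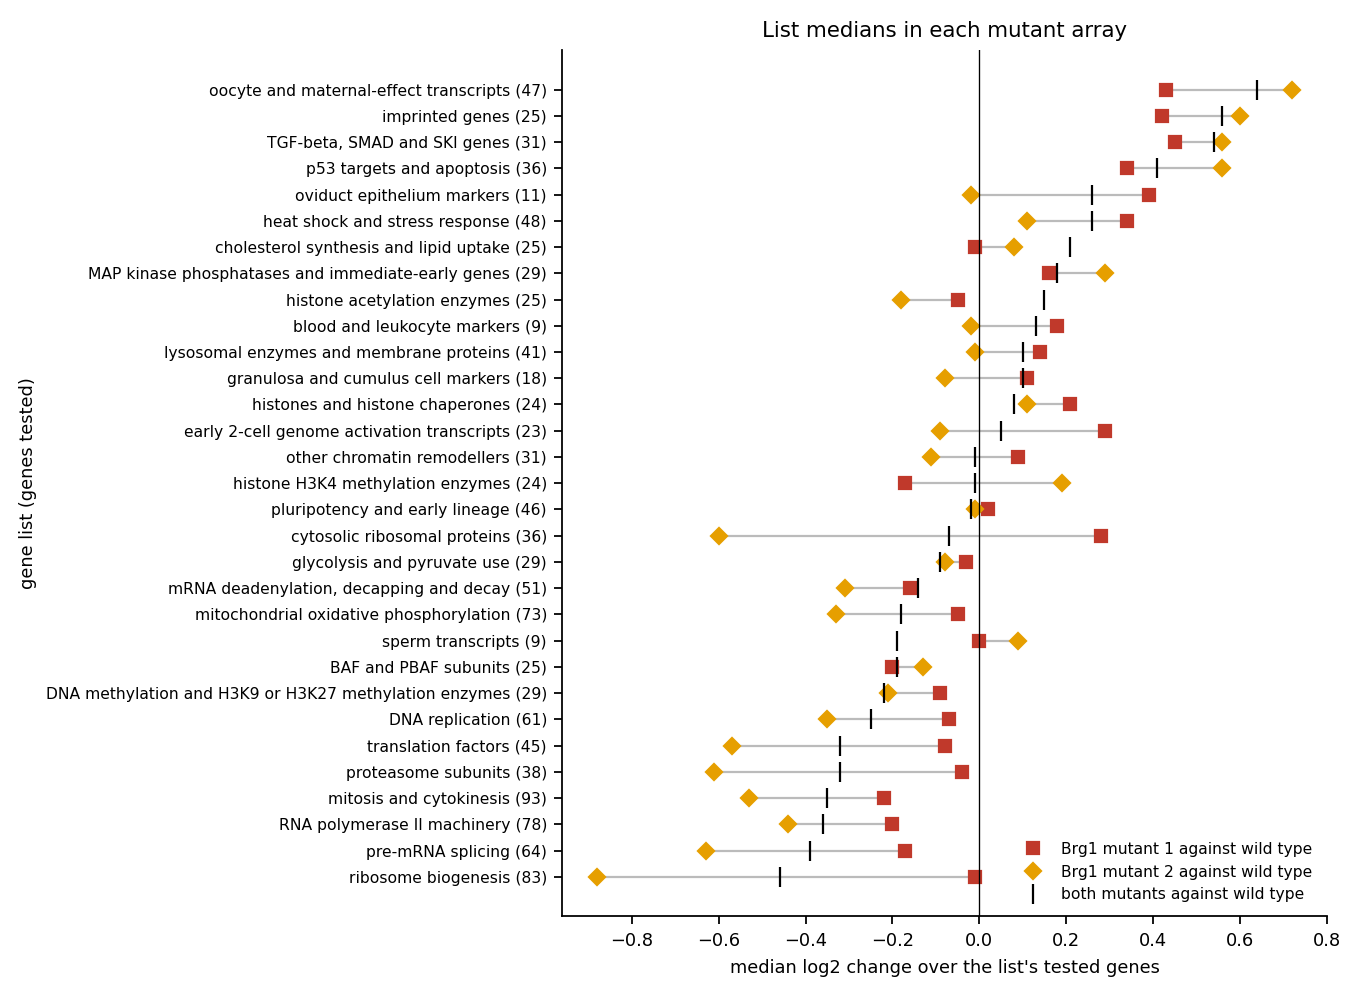
Median log2 change of each gene list for mutant 1 alone (squares), mutant 2 alone (diamonds) and both (bars), each against wild type, with the number of tested genes in brackets. Ribosome biogenesis lies at -0.01 in mutant 1 and -0.88 in mutant 2, and oocyte and maternal-effect transcripts at 0.43 and 0.72.

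The uneven weight of the mutant arrays was visible in single genes too. Among the 430 genes called lower, the change was larger in mutant 2 for 278 and larger in mutant 1 for 150, and in 83 (19.3%) the arrays differed by more than 1 log2 unit. Among the 448 called higher, mutant 2 showed the larger change in 355, and the arrays differed by that much in 12 (2.68%). Over all 11932 tested genes the change was larger in mutant 2 for 6915 and larger in mutant 1 for 5009. Differences of more than 1 log2 unit occurred in 15.7% of them. The correlation across tested probe sets, which are not independent replicates, was 0.897 between mutants 1 and 2, 0.886 to 0.892 between mutant 1 and wild type arrays, 0.832 to 0.876 between mutant 2 and wild type arrays, and 0.917 to 0.970 among wild type arrays.

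mRNA decay genes moved both ways, with 4 rises (7.84%) and 5 falls (9.80%) among 51 tested and a median of -0.14. The shares over all tested genes were 3.75% and 3.60%. Lsm14b, an RNA-binding protein gene of oocyte ribonucleoprotein particles, read 1246, 1665, 1335 and 1249 in wild type and 5467 and 9445 in the mutants (log2 change 2.40, SE 0.255, limma adjusted p = 0.00417, 5.27-fold). The call held in all 6 leave-one-out fits, and the change after quantile normalization was 2.07 (limma adjusted p = 0.00745). Dis3l, a nuclease of the cytoplasmic exosome, fell from 407 to 782 to 183 and 214 (log2 change -1.65, limma adjusted p = 0.0183). Ddx6, a helicase of mRNA storage and decapping, fell from 282 to 343 to 142 and 121 (log2 change -1.29, limma adjusted p = 0.0191), while 3 other Ddx6 probe sets did not pass (log2 changes -0.54, -0.37 and 0.03). Dis3l lost its call without wild type 1 and 4 or mutant 2 (limma adjusted p 0.0507 to 0.0622), and Ddx6 without wild type 1 and 4 or mutant 2 (limma adjusted p 0.0566 to 0.0822). Without wild type replicate 1 there were 2 rises and no fall, against 115 and 81 of all tested genes. Without mutant replicate 2 the median was -0.16.

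Cell division genes leaned lower. Among 93 mitosis and cytokinesis genes, 10 fell (10.75%) and 1 rose (1.075%), against 3.60% and 3.75% of all tested genes. Their median was -0.35. The kinetochore gene Cenpq read 626, 427, 749 and 712 in wild type and 163 and 166 in the mutants (log2 change -1.90, SE 0.282, limma adjusted p = 0.00969) and held its call in every leave-one-out fit. Racgap1, part of the centralspindlin complex of cytokinesis, read 1022, 1119, 998 and 902 against 457 and 280.2 (log2 change -1.49, limma adjusted p = 0.0153), a call lost without wild type 1 or mutant 2 (limma adjusted p 0.0505 to 0.0654). Another Racgap1 probe set did not pass (log2 change -0.97, limma adjusted p = 0.0796). The gene that rose was Pttg1 (securin), which read 7668, 6309, 8589.7 and 5369.6 against 19705 and 18455 (log2 change 1.47, SE 0.204, limma adjusted p = 0.0092). This bright gene changed by 0.34 after quantile normalization (limma adjusted p = 0.222) and by 1.22 to 1.41, still passing, under the other 3 scalings, and 2 other Pttg1 probe sets did not pass (log2 changes 0.59 and 0.48). The count lower was 1, 7, 2 and 3 without wild type replicates 1 to 4, against 81, 324, 182 and 109 of all tested genes. The median was -0.53 without mutant replicate 1 and -0.22 without mutant replicate 2.

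In DNA replication, 5 of 61 genes fell (8.20%, against 3.60% of all tested genes) and none rose (3.75% of all), with a median of -0.25. Mcm5, a subunit of the replicative helicase, read 1736, 1669, 1301 and 1416 in wild type and 581 and 715 in the mutants (log2 change -1.24, limma adjusted p = 0.0184). Gins2 read 648, 613, 621 and 705 against 285 and 276 (log2 change -1.20, limma adjusted p = 0.0186), and a second Gins2 probe set fell by 2.06 (limma adjusted p = 0.0162). The primase gene Prim1 read 653, 660.1, 579 and 529.7 against 268 and 245 (log2 change -1.24, limma adjusted p = 0.0192). In all 3 genes both mutants lay below every wild type array and close to each other. The called Mcm5 probe set is of a kind that can cross-hybridise. Other probe sets of Mcm5 (log2 change -0.55, limma adjusted p = 0.31) and Prim1 (log2 change -0.95, limma adjusted p = 0.127) did not pass. Mcm5 lost its call without wild type 1 and 4 (limma adjusted p 0.0507 to 0.062), Gins2 without wild type 1 and 4 or mutant 2 (limma adjusted p 0.059 to 0.0644) and Prim1 without wild type 1 and 4 or mutant 2 (limma adjusted p 0.0505 to 0.0755). The list had 0, 5, 3 and 0 falls without wild type replicates 1 to 4, against 81, 324, 182 and 109 of all tested genes.

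Genes of TGF-beta signalling leaned higher. Among 31 TGF-beta, SMAD and SKI genes, 5 rose (16.1%, against 3.75% of all tested genes) and none fell (3.60% of all). Their median was 0.54, and both Gdf9 and Bmp15 are also members of the oocyte list. With centring on the median 1 gene of the list rose, against 149 of all 11932 tested genes, and the list's median was 0.29. After quantile normalization and with centring on the 75th percentile 4 rose, and under cyclic loess 6 did. Skil, a corepressor of SMAD proteins, read 34.8, 38.5, 27.2 and 42.7 in wild type and 101 and 184 in mutants 1 and 2 (log2 change 1.95, limma adjusted p = 0.0204), while mutants 3 and 4 read 1868 and 1934. Bmp6, a ligand of the same family, read 1005, 738, 1093 and 1103 against 1909.6 and 2897 (log2 change 1.27, limma adjusted p = 0.0251). A second Skil probe set did not pass (log2 change 0.88, limma adjusted p = 0.15). With centring on the median Bmp6, Gdf9 and Bmp15 did not pass (limma adjusted p 0.0882, 0.0573 and 0.125). Skil lost its call without wild type 1 or mutant 2 (limma adjusted p 0.0587 to 0.124), and Bmp6 without wild type 1 and 4 or mutant 2 (limma adjusted p 0.0543 to 0.132). Leaving out wild type arrays 1 to 4 in turn gave 0, 4, 5 and 2 rises, against 115, 349, 255 and 158 of all tested genes. The median was 0.45 when mutant 2 was left out.

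Of 36 p53 target and apoptosis genes, 4 rose (11.1%) and 1 fell (2.78%), against 3.75% and 3.60% of all tested genes. Their median was 0.41. Bik, a pro-apoptotic BH3-only gene, read 174, 103, 156 and 129.8 in wild type and 463 and 616 in the mutants (log2 change 1.95, SE 0.29, limma adjusted p = 0.00969), and 2 other Bik probe sets also rose (1.60 and 1.32, limma adjusted p 0.0461 and 0.0334). Sesn2, a stress-induced regulator of mTORC1, fell from 1342 to 2414 to 889 and 510.0 (log2 change -1.46, limma adjusted p = 0.0267). Another Sesn2 probe set did not pass (log2 change -0.625, limma adjusted p = 0.315). Bik lost its call without mutant 2 (limma adjusted p 0.0564), and Sesn2 without wild type 1, 2 and 4 or mutant 2 (limma adjusted p 0.0557 to 0.145). Without mutant replicate 2 the median of this list was 0.34.

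Of 48 heat shock and stress genes, 4 rose (8.33%) and 3 fell (6.25%), against 3.75% and 3.60% of all tested genes. Their median of 0.26 became 0.01 when arrays were centred on the median, while that of all tested genes went from 0.03 to -0.22. Besides Ddit3, the transcription factor gene Atf3 rose from 18.7 to 47.7 to 247 and 104 (log2 change 2.31, limma adjusted p = 0.0262). The chaperone gene Hspa8 read 2220.0, 2284, 2672 and 2304 against 5667 and 3931 (log2 change 0.998, limma adjusted p = 0.0263), with 2 further probe sets higher (1.22 and 1.28, limma adjusted p 0.0422 and 0.0209). Hsp90b1, the endoplasmic reticulum chaperone GRP94, rose from 489 to 738 to 1114 and 1350.4 (log2 change 1.10, limma adjusted p = 0.0338). A second Hsp90b1 probe set rose by 1.501 (limma adjusted p = 0.0134). With centring on the median Hspa8 and Hsp90b1 did not pass (limma adjusted p 0.102 and 0.115), nor with centring on the 75th percentile (0.051 and 0.0623). Atf3 lost its call without wild type 1 and 3 or mutant 1 (limma adjusted p 0.0533 to 0.104), Hspa8 without wild type 1 and 4 or mutant 1 (limma adjusted p 0.0683 to 0.0811) and Hsp90b1 without wild type 1, 2 and 4 or mutant 2 (limma adjusted p 0.059 to 0.149). The list had 1 rise and no fall without wild type replicate 1, against 115 and 81 of all tested genes.

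Among 29 MAP kinase phosphatase and immediate-early genes, 2 rose and 2 fell (6.90% each, against 3.75% and 3.60% of all tested genes), including Dusp5 and Atf3 above. Spry2, an inhibitor of receptor tyrosine kinase signalling, fell from 367 to 807 to 216 and 221 (log2 change -1.32, limma adjusted p = 0.0391). Its call was lost without wild type 1, 2 and 3 or mutant 1 and 2. It was also lost after quantile normalization (limma adjusted p = 0.0532) and under cyclic loess (limma adjusted p = 0.0531). Another Spry2 probe set did not pass (log2 change -0.86, limma adjusted p = 0.34). Of 25 imprinted genes only Peg3 passed (4.0% higher, against 3.75% of all tested genes), and it rose (log2 change 1.57, limma adjusted p = 0.0447). Another Peg3 probe set did not pass (log2 change 0.57, limma adjusted p = 0.317). The list's median was 0.56, and Peg3 lost its call without wild type 1, 2 and 3 or mutant 1 and 2 (limma adjusted p 0.0824 to 0.166).

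Pluripotency and early lineage genes included 2 rises (4.35%) and 4 falls (8.70%) among 46 tested, with a median of -0.02. The shares over all tested genes were 3.75% and 3.60%. Zfp281, a zinc finger regulator of pluripotency, read 267, 324, 218 and 224 in wild type and 58.6 and 69.7 in mutants 1 and 2 (log2 change -1.997, SE 0.27, limma adjusted p = 0.0092) and held its call in all 6 leave-one-out fits. In mutants 3 and 4 it read 514 and 503, above wild type. Another Zfp281 probe set did not pass (log2 change -0.97, limma adjusted p = 0.113). Yap1, the Hippo pathway coactivator, read 7503, 6141, 8259 and 6277 against 15108 and 17496 (log2 change 1.22, limma adjusted p = 0.00969), and Klf17, an early embryonic Krüppel-like factor, 5975, 6174, 6614 and 5254 against 10524 and 11514 (log2 change 0.88, limma adjusted p = 0.02). After quantile normalization neither of these bright genes passed (changes 0.15 and 0.08, limma adjusted p 0.553 and 0.726), but both did under cyclic loess (changes 1.04 and 0.73, limma adjusted p 0.0105 and 0.0344) and with centring on the 75th percentile (limma adjusted p 0.0228 and 0.0411). With centring on the median Yap1 passed (limma adjusted p 0.0463) and Klf17 did not (limma adjusted p 0.1002). Another Yap1 probe set did not pass (log2 change -0.60). Other Klf17 probe sets did not pass (log2 changes 0.20 and 1.22, limma adjusted p 0.536 and 0.0616). Pou5f1, the pluripotency factor OCT4, read 907, 775, 1137 and 1239.8 against 1014 and 1797 (log2 change 0.44, limma adjusted p = 0.389). Without mutant replicate 2 the median of the list was 0.02.

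Of 29 genes of glycolysis and pyruvate use, 5 fell (17.2%, against 3.60% of all tested genes) and none rose (3.75% of all), although the median was -0.09. Tpi1, triose phosphate isomerase, read 335, 413, 394 and 526 in wild type and 141 and 85.8 in the mutants (log2 change -1.90, SE 0.297, limma adjusted p = 0.0114), and 2 more Tpi1 probe sets fell by 1.86 and 1.95 (limma adjusted p 0.0118 and 0.0116). Pgam1, phosphoglycerate mutase, read 699, 622, 658 and 541 against 317 and 151 (log2 change -1.52, limma adjusted p = 0.025). Mpc1, of the mitochondrial pyruvate carrier, read 1778, 1278, 1642 and 1650.3 against 734 and 726 (log2 change -1.11, limma adjusted p = 0.022). Tpi1 in mutants 3 and 4 read 1021 and 863, above wild type. Tpi1 lost its call without mutant 2 (limma adjusted p 0.0586), Pgam1 without wild type 1, 3 and 4 or mutant 2 (limma adjusted p 0.0535 to 0.11) and Mpc1 without wild type 1, 3 and 4 or mutant 2 (limma adjusted p 0.0567 to 0.0787). The list had 1, 4, 1 and 1 falls without wild type replicates 1 to 4, against 81, 324, 182 and 109 of all tested genes. Without mutant replicate 2 its median was -0.03.

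Of 73 oxidative phosphorylation genes, 1 rose (1.37%) and 2 fell (2.74%), at a median of -0.18. Both shares were below those over all tested genes, 3.75% and 3.60%. The complex I subunit Ndufv3 rose from 139 to 296 to 654 and 733 (log2 change 1.64, limma adjusted p = 0.0219). Cox11, an assembly factor of complex IV (log2 change -1.17, limma adjusted p = 0.0283), and Sdhd of complex II (log2 change -1.42, limma adjusted p = 0.039) fell, and a second Sdhd probe set fell by 2.42 (limma adjusted p = 0.0118). All 3 calls were lost without wild type replicate 4 or mutant replicate 2, and those of Cox11 and Sdhd without wild type replicate 1 and mutant replicate 1 as well (limma adjusted p up to 0.115). Of 25 cholesterol genes, 2 fell (8.0%, against 3.60% of all tested genes). Fdft1, squalene synthase, fell from 3466 to 4033 to 1764 and 1775 (log2 change -1.04, limma adjusted p = 0.016), with 3 other probe sets that did not pass, and Mvk, mevalonate kinase, was at least 2.43-fold lower (limma adjusted p = 0.0168). Fdft1 lost its call without wild type 1 and 4 (limma adjusted p 0.0507 to 0.0563), and Mvk without wild type 1 and 4 or mutant 2 (limma adjusted p 0.0529 to 0.0641). None of 41 lysosomal genes passed the limma test, and 7 had an unadjusted p under 0.05, against 5712 of all 22518 tested probe sets. Neu1, a sialidase, came closest (log2 change 1.59, limma adjusted p = 0.0534).

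**Figure D5:**
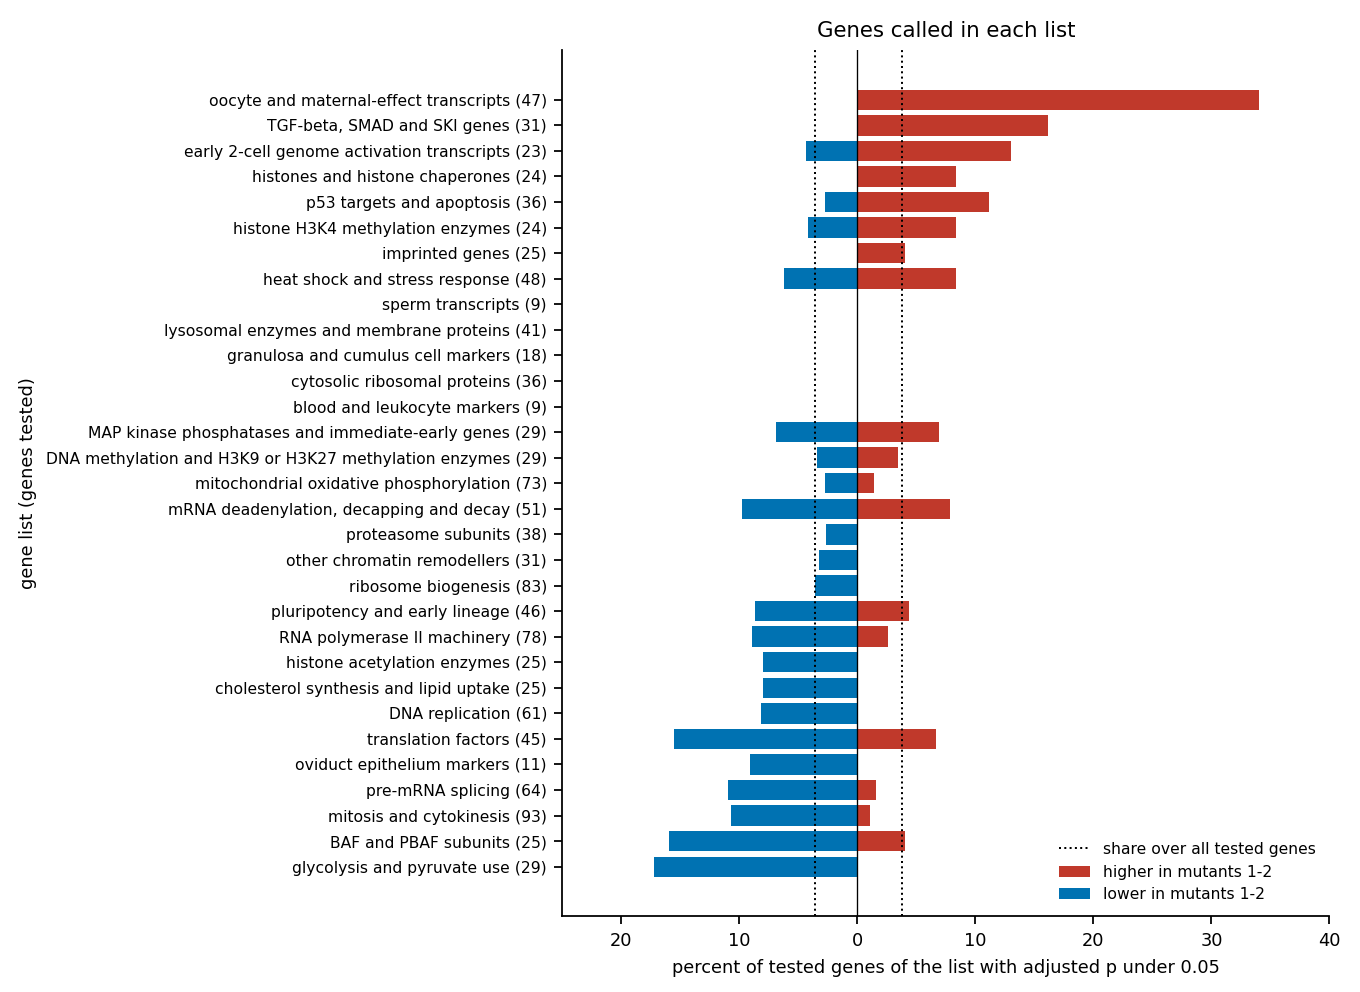
Percent of each list's tested genes that rose (right, red) or fell (left, blue) at a limma adjusted p under 0.05, with the number tested in brackets. Dotted lines mark the shares over all tested genes, 3.75% higher and 3.60% lower. The oocyte list, with 16 of 47, extends farthest to the right.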

How the data were processed

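RNA of 20 pooled 2-cell embryos per sample was measured on 8 arrays, 6 of which were compared. The deposited values were array intensities, 1 linear MAS5 signal per probe set, per the submitters' processing notes. No MAS5 version is stated in the sources used here. All arrays shared a trimmed mean of 150.0, so no further scaling was applied. Arrays give no read depth, and precision is limited by how many there are.

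A floor of 1 was applied before log2. Control probe sets (64) were removed, and the brighter 50% of the rest by mean over the 6 arrays, 22518 probe sets with a mean log2 signal of at least 5.24, entered a two-sided test in limma 3.58.1 under R 4.3.3. It used lmFit and a trended eBayes, Benjamini-Hochberg adjustment and a threshold of 0.05. The fit was also run on simulated data, and that run is not used as support here. A gene that did not pass is not shown to be unchanged. No 2 arrays held identical values. Where every array of a group lay under the Bacillus bound, a fold is printed as "at least" the brighter group's mean over the higher of the bound and the dim signal, per array on the log2 scale.

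Gene names follow GEO's platform table (34945 probe sets with 1 symbol, 932 with several, 9160 with none), and 34741 matched the RefSeq table of GRCm38.p6. Among the 3209 tested probe sets without a single symbol, 108 rose and 44 fell. A gene is its brightest tested probe set. Other tested probe sets of called genes passed in the same direction in 160 cases and in the opposite direction in 6, and did not pass in 638 (470 with the same sign).

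Named genes are the 12 largest rises and falls among called genes with 1 symbol, no _x_at suffix and no overlap between groups, up to 3 members with the smallest adjusted p in each of 31 lists (1 where none passed), all called oocyte genes, and Smarca4, Smarca2, Glis1, Fxyd6, Zar1, Hspa1b, Eif1a, Pou5f1, Nlrp5, Zp3, Dppa3, Gdf9, Hsd3b1 and Vim. Arid2, Zfp352 and Gtsf1, like Nfya, were named after their values were seen. The members, lists and rule were chosen with earlier results of these data known.

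The comparison was repeated with 4 other scalings (quantile, median, 75th percentile, cyclic loess), without the filter or with the brightest 30%, with 12.5 added to each signal, without the trend, with array weights, with a replicate block, with all 8 arrays in 3 groups, without _x_at and _s_at probe sets, with gene means over probe sets, and without each array in turn, where a lone mutant is assumed to vary like wild type. Cyclic loess and the CCAAT search were added after the data were seen.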

Additional observations from a re-analysis of the deposited data

Results flagged for a closer look

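Some single arrays stood far from the rest of their group. Chance alone gives this in about 1 in 20 groups of 4, and more than 100 genes were examined. Wild type replicate 2 was apart from the other wild type arrays for Fxyd6 (23.7, the others at most 4.9), Ncoa3 (1311), Cox11 (263), Fdft1 (4033) and Lhfpl2 (181). Wild type replicate 1 was apart for Nudt19 (17.6) and Ccdc153 (112). None of these 7 values lay on the mutant side of the gap between the groups, and those of Fxyd6, Ncoa3, Cox11 and Lhfpl2 lay toward the mutants without reaching them.

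Signals outside the gene comparison were also raised above all wild type arrays. The hybridisation controls stood at 6.05 and 3.80 times the wild type mean in mutant replicates 1 and 2. The B2 repeat control read 33763 and 25331, and the 18S rRNA control 4940.2 and 9333. In mutant replicates 3 and 4, outside the comparison, the summed granulosa and cumulus marker signal was 37813 and 32378.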

How the results depend on the processing

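The numbers of probe sets higher and lower (788 and 696) moved by over 1.5 times in at least 1 direction under 6 settings besides leave-one-out: 279 and 1212 with centring on the median, 445 and 398 with no filter, 417 and 359 with no intensity trend, 368 and 389 with array weights, 498 and 515 with the replicate block, and 1321 and 1175 with all 8 arrays in 3 groups. Leaving out 1 array gave 117 to 830 higher and 143 to 1394 lower. Quantile normalization (646 and 755), centring on the 75th percentile (529 and 712), cyclic loess (788 and 701), the upper 30% (863 and 820), the pseudocount (894 and 753) and removal of shared probe sets (617 and 597) stayed closer. The brighter Smarca4 probe set no longer passed with no filter (log2 change -1.27, limma adjusted p = 0.0582), no intensity trend (-1.27, 0.0637), array weights (-1.25, 0.0571) or the replicate block (-1.35, 0.0672), and leave-one-out fits gave -1.74 to -0.79. Quantile normalization turned Dppa3 (-0.084), Zbed3 (-0.27) and Bcl2l10 (-0.27). The cause was not tested.

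The labels do not say whether same-numbered pools were paired. Deviations of same-numbered pools from their group means correlated at 0.16 for replicate 1 and -0.18 for replicate 2. With only 2 mutant arrays, the deviations of mutants 1 and 2 are equal and opposite, so these values cannot decide whether pools were paired. Under the replicate block 338 of the 788 and 303 of the 696 calls were shared, and 59 of 98 called named genes passed. Of those 98 genes, 82 passed after quantile normalization, 78 with centring on the median, 63 with no filter and 28 in all 6 leave-one-out fits. Signals near the Bacillus bound (16.4 to 31.0 in wild type, 27.2 and 37.7 in mutants) limit the folds of dim genes.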

Other observations

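Of 112 named genes, those of the rule and Nfya, 109 were tested and 98 passed. For the dimmest and brightest 25% of tested probe sets the calls were 78 higher and 68 lower, and 381 higher and 309 lower. Among all tested probe sets, 5712 had an unadjusted p under 0.05.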
